A study of Mus musculus with 12 samples.

Results

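The comparison described here is the difference between genotypes in the response to antigen. For each mouse, the log2 signal without peptide was subtracted from the log2 signal with peptide, and the changes of 3 PKD2-null mice were set against those of 3 wild-type mice. It uses 12 of the 12 arrays of the series, paired by the animal number in the labels, so that 6 mice with 2 arrays each enter. Where a gene had several probe sets, the brightest on average stood for it, which gave 18193 genes among 45037 probe sets. The 4 groups of 3 arrays held lymph node cells of P14-TCR mice, either wild type or PKD2 null, that were cultured for 4 h alone or with the peptide gp33-41 at 62.5 ng/ml. All mice carried the P14 T cell receptor transgene, which recognises this peptide on MHC class I. The labels do not say how the null allele was made, give no age or sex, and name 3 animals per genotype. Whole cell suspensions were cultured, so the arrays also hold RNA of B cells and other lymph node cells. In such mixed samples, fewer cells of a type and less RNA per cell cannot be told apart.

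Protein kinase D2, encoded by Prkd2, is the main protein kinase D of lymphocytes. Engagement of the T cell receptor activates phospholipase C gamma, which makes diacylglycerol, and protein kinase C then phosphorylates and activates PKD2. Class IIa histone deacetylases are among its known substrates. Naive CD8 T cells that meet antigen switch on cytokine, chemokine and cytotoxic genes within hours and switch off genes of the resting state. The comparison asks which of these changes differ in size when the kinase is missing and which do not.

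The signal of Prkd2 itself followed the labels. In wild-type mice 1 to 3 it was 10.17, 10.34 and 9.99 without peptide and 8.16, 8.30 and 8.52 with peptide. In null mice it was 6.33, 5.87 and 5.80 without and 5.60, 5.47 and 5.36 with peptide, below every wild-type array. Array medians ran from 4.66 to 4.72. The 16 B cell markers had mean signals of 8.89 to 8.99 in unstimulated wild-type cells and 9.34 to 10.04 in unstimulated null cells, with all 16 higher in null. Their change with peptide ran from -0.69 to -0.59 in wild type and from -0.63 to -0.60 in null mice. The mean of the 10 CD8 T cell markers lay between 10.11 and 10.72 on every array. Without peptide 2 of the 10 were higher in null. Null mouse 2 had the lowest mean in both conditions, at 10.11 without and 10.27 with peptide. In wild-type mouse 2, the mean of 9 salivary gland genes was 5.85 without and 8.08 with peptide, against changes of -0.27 to 0.19 in the 5 other mice.

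Few genes passed the test of the genotype difference, and most of these rose with antigen and rose less without PKD2. Of 18193 genes, 25 differed in their response (0.137%; limma, adjusted p under 0.05 over all probe sets). The response was lower in null for 19 genes (0.104%) and higher for 6 (0.033%). Over all probe sets 43 of 45037 differed (0.0955%), 34 of them lower in null. At an unadjusted p under 0.05 there were 1928 genes. In the 25 genes the 3 null and 3 wild-type changes did not overlap, which held for 18.5% of all genes. By comparison, peptide changed 38.3% of genes in wild type and 34.8% in null cells in the same fit. Fewer probe sets were called with any mouse left out. The count was 0 without null mouse 1, 2 without wild-type mouse 3, 5 without wild-type mouse 2, 6 without null mouse 3, 9 without null mouse 2 and 17 without wild-type mouse 1. These fits have fewer mice, so a loss of power and a dependence on single mice cannot be told apart. With the arrays unpaired, 1 probe set was called, for Tnfrsf21. The direction of the difference in the 25 genes was the same in each of these fits. This was fixed in advance, since the changes did not overlap and unpairing leaves the group means unchanged.

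The response as a whole was somewhat smaller in the null cultures. In these mixed cultures, fewer responding cells and a smaller response per cell cannot be told apart. A gene was counted as responding when its change averaged over both genotypes passed the test and was at least 1 on the log2 scale, which weighs both genotypes equally. By this measure 861 genes rose (4.73%) and 886 fell (4.87%). The mean change over the 3367 responding probe sets, with falls counted as positive, was 1.72, 1.65 and 1.56 in wild-type mice 1 to 3. It was 1.42, 1.24 and 1.51 in null mice 1 to 3, each below the lowest wild-type value. The null mean of 1.39 was 0.847 of the wild-type mean of 1.64, and the ratio was 0.858 for probe sets that rose and 0.834 for those that fell. Of the genes that rose, 737 of 861 rose less in null, and of those that fell, 729 of 886 fell less. When null changes were tested against 0.847 times the wild-type change, an alternative added after the data were seen, 4 probe sets differed. These were probe sets of Ccnb1ip1, Dhx34 and Tnfrsf19, higher in null, and of Tnfsf11, lower in null.

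**Figure D1:**
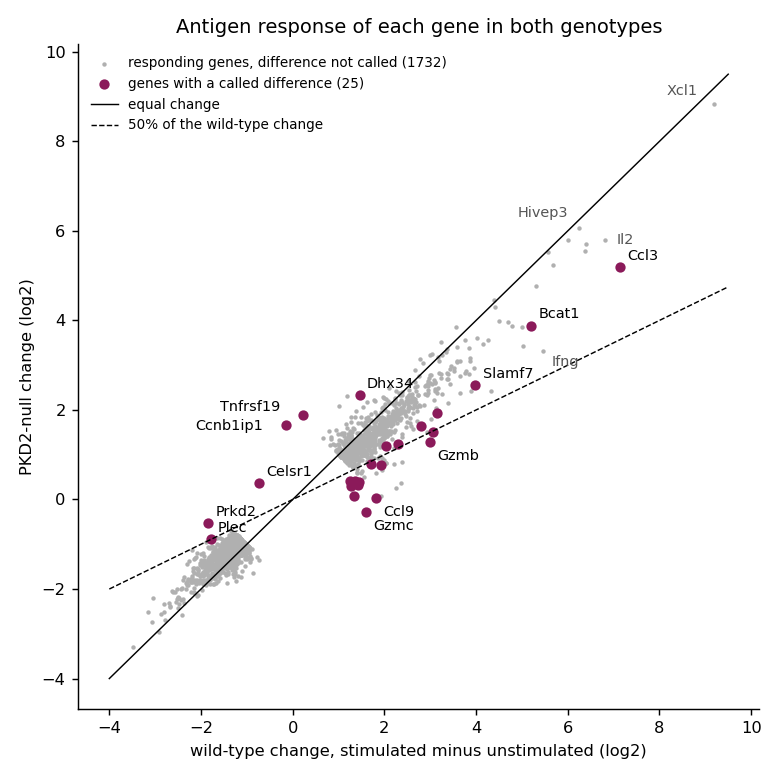
Change with antigen of each gene (log2, stimulated minus unstimulated), with the mean of 3 wild-type mice on the horizontal and of 3 PKD2-null mice on the vertical axis. Grey points are the 1732 responding genes without a called difference and coloured points the 25 genes with one; the lines mark equal change and 50% of the wild-type change. Of the 1732 grey genes, 1431 lie between the lines, and Gzmc, Ccl9 and Slc16a10 lie near 0 on the vertical axis.

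Granzyme genes, whose products kill target cells, were among the called differences. Gzmb, which encodes granzyme B, read 5.84, 5.29 and 5.55 in wild-type mice 1 to 3 without peptide and 8.65, 8.34 and 8.67 with it. In null mice 1 to 3 it read 5.17, 6.20 and 5.16 without and 6.50, 7.69 and 6.19 with peptide. Unstimulated levels overlapped, and every stimulated null array lay below every stimulated wild-type array. Gzmb thus rose by 3.00 ± 0.16 (SD, n = 3) in wild type and by 1.28 ± 0.24 in null cells, a difference of -1.71 (SE 0.153, limma adjusted p = 0.016) or 3.28-fold. Gzmc, which encodes granzyme C, went from 3.90, 3.91 and 3.67 to 5.28, 5.39 and 5.59 in wild type. Its null signal went from 5.08, 4.10 and 4.11 to 4.44, 4.13 and 3.86. All 3 wild-type mice went up, while null mice 1 and 3 went down and null mouse 2 moved by 0.03. The difference was -1.88 (SE 0.200, adjusted p = 0.034), and the null change of -0.28 had a 95% interval of -0.60 to 0.03. Gzmb and Gzmc are neighbours on the chromosome, with 0 coding genes between them. Prf1, which encodes the pore-forming perforin, was picked after its values were seen and rose by 1.61 in wild type and 1.63 in null (difference 0.02, 95% interval -0.44 to 0.48).

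Chemokine genes ranged from a rise not detected in null cells to rises with no called difference. Ccl3, an inflammatory chemokine, rose from 6.22, 4.88 and 5.59 to 13.00, 12.57 and 12.54 in wild type. In null cells it rose from 5.57, 6.14 and 5.40 to 10.83, 11.28 and 10.58. The stimulated null arrays were all lower, and the changes of 7.14 ± 0.48 and 5.20 ± 0.06 differed by -1.94 (SE 0.214, adjusted p = 0.034), or 3.84-fold. Null cells still kept more than 50% of the wild-type log2 rise of Ccl3 (72.8%, adjusted p = 0.0019 against 50%). Ccl9, a chemokine of the same family, went from 5.97, 4.85 and 5.70 to 7.35, 7.00 and 7.62 in wild type and from 5.88, 6.01 and 5.78 to 5.93, 6.27 and 5.59 in null. Its rise of 1.82 in wild type stood against 0.04 in null (95% interval -0.28 to 0.36), a difference of -1.78 (SE 0.202, adjusted p = 0.034). Ccl4, which has 0 coding genes between it and Ccl3, rose by 6.37 in wild type and 5.55 in null (-0.82, 95% interval -1.35 to -0.30, adjusted p = 0.26). Xcl1, a chemokine that attracts dendritic cells, reached 14.25, 14.18 and 14.11 with peptide in wild type and 13.74, 14.12 and 13.80 in null. Its changes overlapped, 9.19 ± 0.37 against 8.83 ± 0.41, with a difference of -0.36 (95% interval -0.89 to 0.17), on arrays whose highest value was 15.07.

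The 250 bases before the start of 3 of these genes are given from RefSeq (GRCm38.p6), to set the sequence beside the values of Gzmb and Ccl3, whose rises were smaller in null, and of Xcl1, whose difference was bounded. Capitals mark matches to an AP-1 site, spelled TGANTCA, or to the NFAT core, spelled GGAAA, on either strand.
Gzmb (chr14:56262335-56262584, minus strand): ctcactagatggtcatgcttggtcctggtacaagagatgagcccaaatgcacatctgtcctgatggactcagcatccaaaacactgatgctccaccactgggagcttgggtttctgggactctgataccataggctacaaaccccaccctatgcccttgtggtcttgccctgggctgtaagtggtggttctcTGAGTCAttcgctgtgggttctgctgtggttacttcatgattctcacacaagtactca
Ccl3 (chr11:83649379-83649628, minus strand): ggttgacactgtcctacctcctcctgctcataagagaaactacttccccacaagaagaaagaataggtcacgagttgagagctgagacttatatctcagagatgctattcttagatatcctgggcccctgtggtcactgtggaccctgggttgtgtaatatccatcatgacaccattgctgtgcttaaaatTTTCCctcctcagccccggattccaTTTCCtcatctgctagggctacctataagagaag
Xcl1 (chr1:164935523-164935772, minus strand): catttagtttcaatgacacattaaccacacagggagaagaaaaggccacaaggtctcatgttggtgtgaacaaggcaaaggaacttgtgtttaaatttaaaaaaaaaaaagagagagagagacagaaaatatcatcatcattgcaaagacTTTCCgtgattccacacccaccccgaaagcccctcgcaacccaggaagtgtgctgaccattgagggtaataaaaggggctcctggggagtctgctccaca
The Gzmb sequence holds 1 AP-1 match, 58 bases before the start, and 0 NFAT cores. The Ccl3 sequence holds 2 NFAT cores, 59 and 34 bases before the start, the Xcl1 sequence holds 1, 100 bases before it, and neither has an AP-1 match. Of the 19 genes lower in null, 16 had an entry in the promoter table, which spans 250 bases before to 50 after a start, and the first start listed was searched. An AP-1 match was found in 4 of the 16 (25%: Bcat1, Ccl9, Gzmb and Slamf7). It was found in 6.33% of 14452 measured genes and 4.54% of 485 genes whose rise was kept. Among 57 genes whose rise had a bounded difference, the share was 10.5%. The NFAT core was found in 62.5% of the 16 and in 59.2% of the 14452. Other motifs counted also had higher shares in the 16 than in the 14452. These were MEF2 (12.5% against 3.34%), the E-box (18.8% against 9.02%) and the GAS element (12.5% against 7.29%). The IRF element went the other way (0% against 3.02%). The E-box share in the 485 kept rises was 19%. These are counts of letters in a window and were not tested.

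The other genes with a smaller rise in null are given by the known role of their product, with no test of these roles as groups. Tnfrsf21, which encodes death receptor 6, went from 3.84, 4.05 and 4.01 to 6.89, 7.04 and 7.12 in wild type and from 4.09, 4.22 and 4.41 to 5.92, 5.52 and 5.82 in null. Its difference was -1.53 (SE 0.154, adjusted p = 0.033), and stimulated levels did not overlap. A weaker probe set of Tnfrsf21 gave only -0.37 (adjusted p = 0.33). Slamf7, a SLAM family adhesion receptor, rose by 4.29, 3.76 and 3.90 in wild-type mice and by 2.94, 2.34 and 2.41 in null mice (-1.42, adjusted p = 0.049). Cd40, the costimulatory receptor of B cells and antigen-presenting cells, rose by 1.83, 1.66 and 1.65 in wild type and 0.68, 0.97 and 0.73 in null (-0.92, adjusted p = 0.049), and its other 2 probe sets were called too, at -1.02 each. Swap70, a guanine nucleotide exchange factor known from B cells, rose by 1.44 in wild type and 0.40 in null, and its other probe set was called as well (-1.04 and -1.08). Without peptide the means of Cd40 and Swap70 were higher in null by 0.38 and 0.42, and all 16 B cell markers were higher too. The ranges of the markers' own changes overlapped between genotypes, as given above. The part of the B cell content in the differences of Cd40 and Swap70 was not tested. Marcksl1, an actin-binding protein, rose by 2.30 against 1.24 (-1.06, adjusted p = 0.043).

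Transcription factors with a called difference were Irf8 and Zeb2. Irf8, an interferon regulatory factor induced by antigen and by interferon gamma, rose by 3.16, 2.98 and 3.32 in wild-type mice and by 2.07, 1.97 and 1.75 in null mice. The changes did not overlap and differed by -1.22 (SE 0.139, adjusted p = 0.034), and its other probe set gave -1.03 (adjusted p = 0.046). Without peptide the 3 null arrays of Irf8 were higher than the wild-type arrays, at 9.17, 9.95 and 9.08 against 9.00, 8.93 and 8.65. Zeb2, a zinc finger repressor of effector CD8 T cells, rose by 1.42 in wild type and 0.33 in null (-1.09, adjusted p = 0.046). Its stimulated means were 6.27 and 6.24, and the unstimulated signal was 1.06 higher in null. Its 4 weaker probe sets gave -0.57 to -0.09 without a call.

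The remaining genes lower in null encode enzymes, transporters and proteins of other kinds. Bcat1, a cytosolic aminotransferase of branched-chain amino acids, rose by 5.00, 4.98 and 5.65 in wild-type mice and by 3.77, 3.96 and 3.93 in null mice. The difference was -1.32 (SE 0.185, adjusted p = 0.049), and null cells kept more than 50% of the log2 rise (74.6%, adjusted p = 0.0026 against 50%). The 2 weaker probe sets of Bcat1 gave -0.98 and -0.13 without a call (adjusted p = 0.27 and 0.9). Slc16a10, a transporter of aromatic amino acids, rose by 1.44, 1.12 and 1.43 in wild type, and its null changes of 0.03, -0.17 and 0.35 lay on both sides of 0. It differed by -1.26 (adjusted p = 0.043), and its 3 weaker probe sets gave -0.65, -0.23 and 0.10 without a call. Chsy1 and Chst11, which build and sulfate chondroitin chains, rose by 1.93 and 1.27 in wild type and by 0.77 and 0.29 in null (-1.16 and -0.97, adjusted p = 0.043 for each), and the weaker probe set of Chst11 gave -0.55 without a call (adjusted p = 0.36). Nudt4, an inositol phosphate phosphatase, rose by 1.36 against 0.41 (-0.95, adjusted p = 0.049) and was called on both of its probe sets. The remaining 3 genes were Tmem38b, an intracellular cation channel (1.24 against 0.41), Prelid2 (2.04 against 1.20) and 3110082I17Rik (2.81 against 1.65). Tmem38b and Prelid2 had other probe sets without a called difference, from -0.44 to -0.11 and at -0.19.

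**Figure D2:**
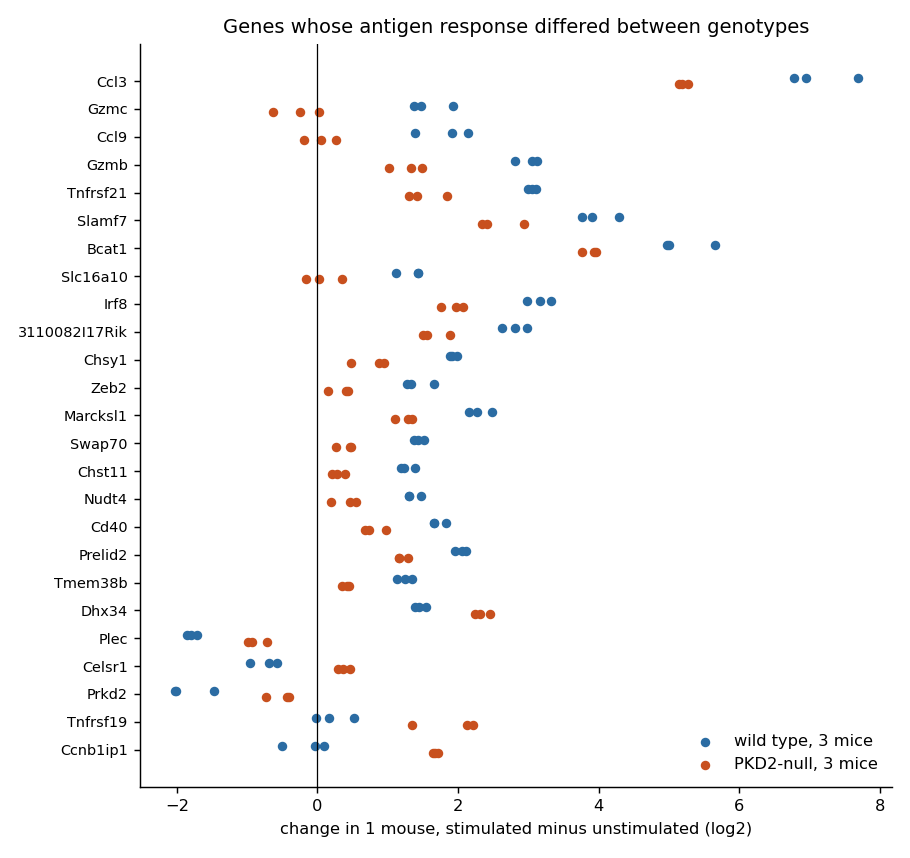
Change with antigen in each mouse (log2) of the 25 genes whose response differed between genotypes, sorted by the difference, with 3 wild-type mice in blue and 3 PKD2-null mice in orange. The colours do not overlap in any row, and Gzmc, Ccl9 and Slc16a10 have null mice on both sides of 0.

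The 6 genes with a higher response in null cells had no common direction. Ccnb1ip1, a ubiquitin ligase that binds cyclin B and acts in meiosis, read 3.66, 3.56 and 4.30 in wild type without peptide and 3.76, 3.53 and 3.79 with it. In null cells it read 4.59, 4.39 and 4.42 without and 6.30, 6.03 and 6.09 with peptide. The wild-type signal was low in both conditions, while each null mouse went up. The change was -0.15 ± 0.32 in wild type and 1.67 ± 0.03 in null, a difference of 1.82 (SE 0.162, adjusted p = 0.016). Tnfrsf19, a TNF receptor family member also called TROY, changed by 0.52, -0.02 and 0.16 in wild-type mice and by 2.21, 1.35 and 2.12 in null mice. It differed by 1.68 (SE 0.234, adjusted p = 0.049), a probe set of nearly equal signal gave 2.91 (adjusted p = 0.034), and a weaker one gave 0.26 (adjusted p = 0.52). Dhx34, an RNA helicase of nonsense-mediated decay, rose in both genotypes and more in null, by 2.34 against 1.46 (0.88, adjusted p = 0.046).

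Among genes that fell with antigen, Plec and Prkd2 fell less in null cells. Plec, the cytoskeletal linker plectin, fell by 1.71, 1.85 and 1.79 in wild-type mice and by 0.72, 0.98 and 0.93 in null mice (difference 0.91, adjusted p = 0.046). Its other probe sets gave 0.56 and 0.39 without a call. The fall of Prkd2 from a high wild-type level stood against a null signal that was already low before peptide (-1.84 and -0.52; difference 1.32, adjusted p = 0.046). The sources used here do not say where its probes lie relative to the deleted part. Of its 4 weaker probe sets 1 was called as well (1.26), and the others gave 0.33 to 1.25. Celsr1, a cadherin family receptor, moved in opposite directions: its 3 wild-type changes were -0.69, -0.96 and -0.58, and its 3 null changes 0.46, 0.36 and 0.30. The difference was 1.12 (SE 0.135, adjusted p = 0.043).

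Both the stimulated and the unstimulated level entered these differences. Of the 19 genes lower in null, 14 had all 3 stimulated null arrays below all 3 wild-type arrays, and the other 5 (Irf8, Swap70, Chst11, Zeb2 and Cd40) overlapped there. Without peptide the mean was higher in null for 16 of the 19, and for 7 of them all 3 null arrays were above all wild-type arrays. Those 7 were Tnfrsf21, Gzmc, Irf8, 3110082I17Rik, Zeb2, Slamf7 and Tmem38b. The 19 genes were picked for a lower response in null, which by itself favours lower stimulated or higher unstimulated null levels. The share of all genes with such levels was not counted. For Zeb2 the unstimulated difference of 1.06 made up nearly the whole, while for Gzmb, at -0.05 without and -1.76 with peptide, it lay in the stimulated level.

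**Figure D3:**
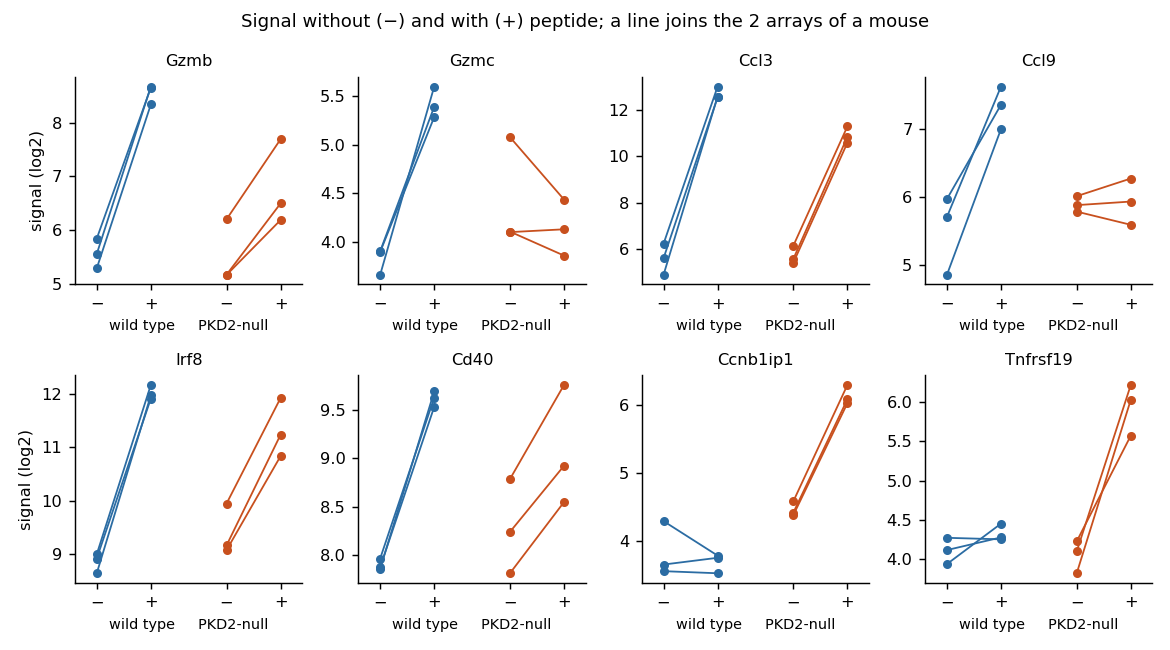
Log2 signal without (minus) and with (plus) peptide of 8 of the genes with a called difference; each line joins the 2 arrays of a mouse, blue for wild type and orange for PKD2-null, and each panel has its own scale. Gzmb and Ccl3 reach lower stimulated levels in null, Gzmc and Ccl9 have no common rise there, and Ccnb1ip1 and Tnfrsf19 go up in the null mice.

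For 6 further genes the difference was called on a weaker probe set only, and these were picked after their values were seen. Tnfsf11, which encodes the cytokine RANKL, had the smallest p of all probe sets. It rose on that probe set by 4.26, 4.09 and 4.57 in wild-type mice and by 2.26, 2.34 and 2.46 in null mice (-1.95, adjusted p = 0.0097), while the probe set with the highest signal gave -1.58 (adjusted p = 0.066). Fcer2a, the low-affinity IgE receptor of B cells, changed by 1.30 in wild type and 0.05 in null (-1.25, adjusted p = 0.034; main probe set -0.77, adjusted p = 0.065). Cdkn1a, a cell cycle inhibitor, gave -1.11 (adjusted p = 0.046) and -1.03 on the main probe set (adjusted p = 0.056). Plscr1 gave -1.76 and Cmtr2, a cap methyltransferase, -0.79. Myb, a transcription factor of lymphocyte progenitors, changed by -0.62 in wild type and 0.89 in null (1.51, adjusted p = 0.046; main probe set 1.48, adjusted p = 0.093).

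Whether a response kept less than 50% of the wild-type change without PKD2 was tested directly, which falls short of a test for its absence. Of the 1747 responding genes, 0 passed as keeping less than 50% (limma, adjusted p under 0.05), and 3 did at an unadjusted p under 0.05. A gene without a null response cannot easily reach the average change of 1 that counts as responding. A count over the genes called in wild type, whatever their average, was therefore added after the data were seen. Genes entered this count through their wild-type change alone, which tilts it towards genes whose wild-type change came out high. The count found 17 of 6973 (0.244%), of which 12 rose and 5 fell in wild type. Among these were Gzmc (adjusted p = 0.0068), Ccl9 (adjusted p = 0.016) and Slc16a10 (adjusted p = 0.029). The interferon-stimulated genes Oasl2 and Ifit1, picked after their values were seen, were there too, with Oasl2 at 1.36 in wild type and -0.03 in null (adjusted p = 0.039) and Ifit1 at 0.86 and -0.12 (adjusted p = 0.03). Their differences missed the threshold (adjusted p = 0.065 and 0.072).

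On the log2 scale, most responses were in large part kept without PKD2. The shares and the 25% bound below refer to the log2 change. A large response can keep more than 50% and still differ severalfold, as Ccl3 did (72.8%, 3.84-fold). Null cells kept more than 50% of the wild-type change in 1047 of the 1747 responding genes (59.9%), 577 of 861 rises and 470 of 886 falls. For the median gene the null change was 84.0% of the wild-type change among rises and 85.0% among falls. A stricter measure asked for a 95% interval of the difference that lay wholly within 25% of the average change, and 110 genes met it (6.3%), 72 rises and 38 falls. The interval reached 0.33 to either side of the difference for the median rise and 0.34 for the median fall, so small responses could seldom meet the 25% bound. The count of probe sets keeping more than 50%, 1863, dropped to 346 without null mouse 1 and 333 without null mouse 3. Against 75% of the wild-type change 18 probe sets passed, and against 25% 3223 did.

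Large rises with a bounded difference are given next. Hivep3, a zinc finger factor, rose by 6.21, 6.20 and 6.29 in wild-type mice and by 6.35, 5.57 and 6.27 in null mice, with overlap and a difference of -0.17 (95% interval -0.61 to 0.27). Tnfsf14, which encodes the cytokine LIGHT, rose by 6.02, 6.01 and 6.01 against 6.06, 5.49 and 5.82 (-0.22, 95% interval -0.57 to 0.12). Crtam, a surface molecule of activated cytotoxic cells, rose by 6.39 against 5.72 (-0.67, 95% interval -1.28 to -0.07). Slc16a1, a lactate transporter, rose by 2.36, 2.47 and 2.34 against 2.31, 2.45 and 2.44, and Zap70, the kinase that starts receptor signalling, by 2.33, 2.18 and 1.99 against 2.24, 2.15 and 2.09. The differences of 0.01 and -0.01 had 95% intervals of -0.25 to 0.27 and -0.30 to 0.29. Spry1, an inhibitor of Ras signalling, Il2ra, the high-affinity IL-2 receptor chain, and Ccnd2, a G1 cyclin, also met the 25% bound, at -0.55, -0.52 and 0.21. The 95% intervals of Spry1 (-0.92 to -0.18) and Il2ra (-0.91 to -0.12) lay below 0, and that of Ccnd2 (-0.13 to 0.55) included it. Tnf, picked after its values were seen, rose by 4.40 and 4.45 (0.05, 95% interval -0.31 to 0.42).

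Large falls that were kept or had a bounded difference follow. Rflnb, a filamin-binding protein, fell by 3.91, 3.31 and 3.23 in wild-type mice and by 3.17, 3.18 and 3.51 in null mice, with overlap (difference 0.20, 95% interval -0.23 to 0.63). Il7r, the IL-7 receptor alpha chain needed for survival of naive T cells, fell by 2.41 and 2.59 (-0.18, 95% interval -0.60 to 0.24). Tdrp, Fam78a and Mturn fell by 2.91, 3.07 and 2.79 in wild type and by 2.95, 2.74 and 2.69 in null, all within the 25% bound. Slc6a19, an amino acid transporter, kept more than 50% of its fall (-3.15 against -2.52) with a difference of 0.63 that was not called (adjusted p = 0.22). Its changes did not overlap between genotypes.

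**Figure D4:**
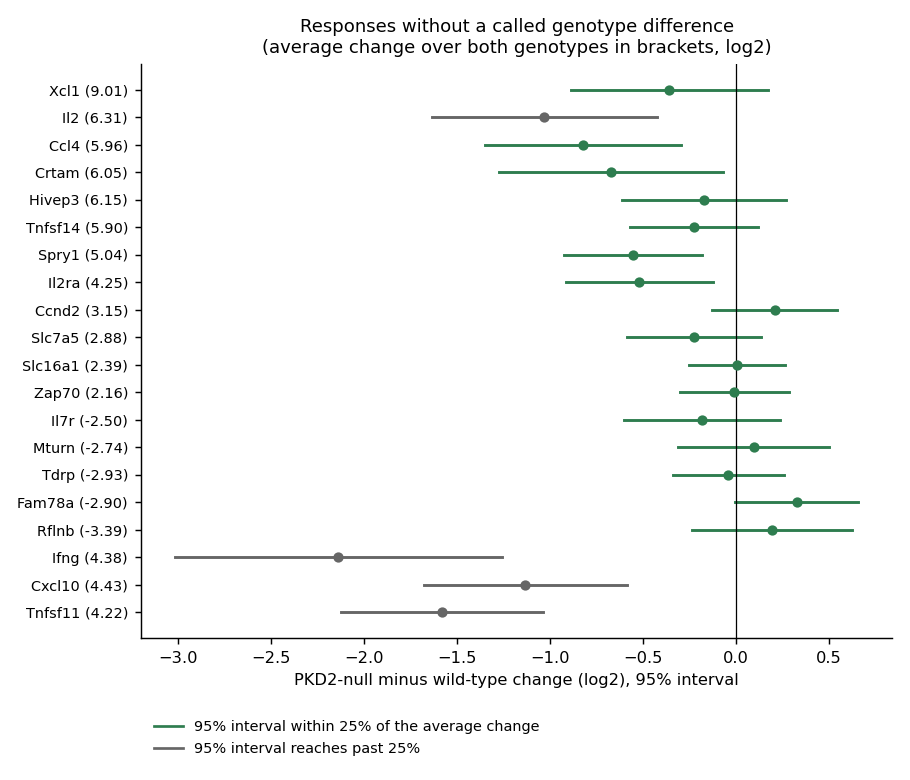
Null minus wild-type change (log2) with its 95% interval for 20 genes without a called difference, with the average change of each gene in brackets; green intervals lie within 25% of that average and grey ones reach past it. Xcl1, Hivep3 and Slc16a1 include 0, Il2 and Ccl4 lie below 0, and Ifng has the widest interval shown, from -3.02 to -1.26.

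The cytokine genes Ifng and Il2 did not pass the test of the difference. Ifng, which encodes interferon gamma, rose by 5.16, 5.42 and 5.77 in wild-type mice and by 3.16, 4.33 and 2.45 in null mice. The groups did not overlap, the null mice were spread widely, and the difference of -2.14 (SE 0.392) had an adjusted p of 0.12. Il2, the T cell growth factor, rose by 6.46, 6.66 and 7.34 against 5.61, 6.31 and 5.45, a difference of -1.03 (95% interval -1.64 to -0.42, adjusted p = 0.24). Null cells kept more than 50% of the log2 rise of Il2 (84.9%, adjusted p = 0.0011 against 50%), although its difference was 2.04-fold. That more than 50% was kept could not be said of Ifng (60.8%, adjusted p = 0.35). Lif and Il3, cytokines of the same list, were picked after their values were seen and rose by 4.33 and 2.37 in wild type against 2.41 and 0.37 in null, with adjusted p-values of 0.16 and 0.24. Of 23 cytokines and chemokines 10 responded, all upward, 2 were called lower in null (Ccl3 and Ccl9) and 6 kept more than 50%.

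Gene lists showed where differences and kept responses lay, against a median of 84.5% of the wild-type change and 59.9% kept over all responding genes. With 0.137% of all genes called, 0 calls in a short list say little. Of 16 TNF ligands and cytotoxic genes 8 rose, 2 were called lower in null (Gzmb and Gzmc), and 6 of the 8 kept more than 50%. Of 24 activation receptors 16 rose, 1 was called (Slamf7) and 11 kept more than 50%. Tnfrsf9, which encodes 4-1BB, rose by 4.77 against 3.88 and Tfrc, the transferrin receptor, by 3.36 against 2.82, both kept. Of 29 early transcription factors 20 rose, 1 was called (Irf8) and 10 kept more than 50%. Egr1 rose by 3.45 against 2.97 and Irf4 by 3.87 against 3.15, both kept, while Jun and Fosl1, subunits of AP-1 picked after their values were seen, stood at 2.03 against 0.81 and 3.65 against 2.37 (adjusted p = 0.25 and 0.12).

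Interferon target lists had lower median shares than the all-gene median, but not they alone. Diacylglycerol signalling (73.15%), glycolysis (80.53%) and IL-2 and STAT5 targets (80.58%) were also below it. Of 22 interferon gamma targets 12 rose, all 12 less in null, as did 85.6% of all genes that rose. Of these targets 1 was called (Irf8) and 4 kept more than 50%, with a median null change of 75.9% of wild type. Cxcl10, a chemokine, rose by 4.99 against 3.86 and Irgm1, a GTPase of cell-autonomous immunity, by 3.16 against 2.37, both kept and neither called (adjusted p = 0.16 and 0.21). Of 22 type I interferon-stimulated genes 2 rose and 1 fell, 0 were called and 0 kept more than 50%. The 2 that rose were Zbp1, a nucleic acid sensor, at 1.99 against 0.88, and Rtp4 at 1.87 against 0.93 (adjusted p = 0.25 and 0.22). Of 16 IL-2 and STAT5 targets 10 rose, 1 was called (Gzmb) and 4 kept more than 50%, with Cish, a feedback inhibitor, at 3.10 against 2.63.

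The growth and resting-state lists had 0 called members, against 0.137% of all genes, and counts of kept genes are over their responding members. At an unadjusted p under 0.05 (limma) there were 10 of 27 ribosome biogenesis and 7 of 15 polyamine and nucleotide genes. The serine, glycolysis, cholesterol and naive lists had 6 of 21, 5 of 17, 4 of 17 and 8 of 27. Over all genes the count was 1928 of 18193. Of 27 ribosome biogenesis genes 26 rose, all 26 less in null (85.6% over all genes that rose), and 25 kept more than 50%, at a median of 86.3%. Nolc1 and Nop58, nucleolar proteins, rose by 3.05 and 2.65 against 2.59 and 2.25. Of 15 polyamine and nucleotide synthesis genes 7 rose and all 7 were kept, among them Srm, spermidine synthase, at 4.15 against 3.48. Of 21 serine, one-carbon and ATF4 genes 8 rose and 7 were kept. Of 17 glycolysis genes 5 rose and 1 fell, with 4 kept, and Hk2, hexokinase, was at 3.44 against 2.57 (adjusted p = 0.17). Of 17 cholesterol genes 6 rose and 5 were kept. Of 27 naive and quiescence genes 15 fell and 2 rose, 16 of the 17 were kept, and the median was 92.1%. S1pr1, the receptor for exit from lymph nodes, fell by 2.81 against 2.34, and Lef1, a factor of naive T cells, by 2.28 against 1.90.

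Genes of the signalling pathway itself had few responding members. Of 18 genes of diacylglycerol signalling 1 rose and 3 fell, and Prkd2 was called. Dgka, a kinase that removes diacylglycerol, fell by 1.92 against 1.40 (adjusted p = 0.23) and Rasgrp2, a Rap activator, by 2.21 against 1.85, both kept. Of 16 receptor complex and proximal kinase genes 3 rose and 2 fell, 0 were called and 4 kept more than 50%. Lcp2, the adaptor SLP-76, rose by 1.80 against 2.19, Fyn by 1.33 against 1.26, and Cd247, the zeta chain, fell by 0.95 against 1.08. Of 8 class IIa deacetylase and MEF2 genes 1 responded, Hdac5, which fell by 1.20 against 1.11 and was kept. Of 28 feedback regulators 11 rose and 5 fell, 0 were called and 13 were kept, among them Dusp2, a MAP kinase phosphatase, at 1.19 against 1.59. Of 15 amino acid transport genes 5 rose and 1 fell with 5 kept, and Slc7a5, the leucine transporter, rose by 3.00 against 2.77. Of 27 cell cycle genes 4 rose and 2 fell with 3 kept, including Cdk4 at 1.64 against 1.36.

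Markers of other cell types gave 0 called differences on their main probe sets, against 0.137% of all genes. Of 16 B cell markers 2 responded, and of these Fcrla fell by 1.40 against 1.16 and was kept. Of 19 myeloid and dendritic cell markers 0 responded, with a median difference of -0.22, and 15 were higher in null without peptide. Their mean change was -0.26, 0.02 and -0.24 in wild-type mice and -0.43, -0.33 and -0.32 in null mice. The mean change of 8 plasma cell markers was 0.12, 0.47 and 0.07 in wild type and -0.01, -0.15 and -0.01 in null. Neither list was tested as a whole. Of 7 NK cell markers 2 rose and 1 fell, all 3 less in null, with Nkg7 at 1.56 against 1.47. The salivary gland list had a median difference of -0.81 and 0 calls. Its gene Pip changed by -0.13, 4.62 and 0.22 in wild-type mice and by 0.01, 0.82 and -0.97 in null mice, so that wild-type mouse 2 stood far above the others.

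**Figure D5:**
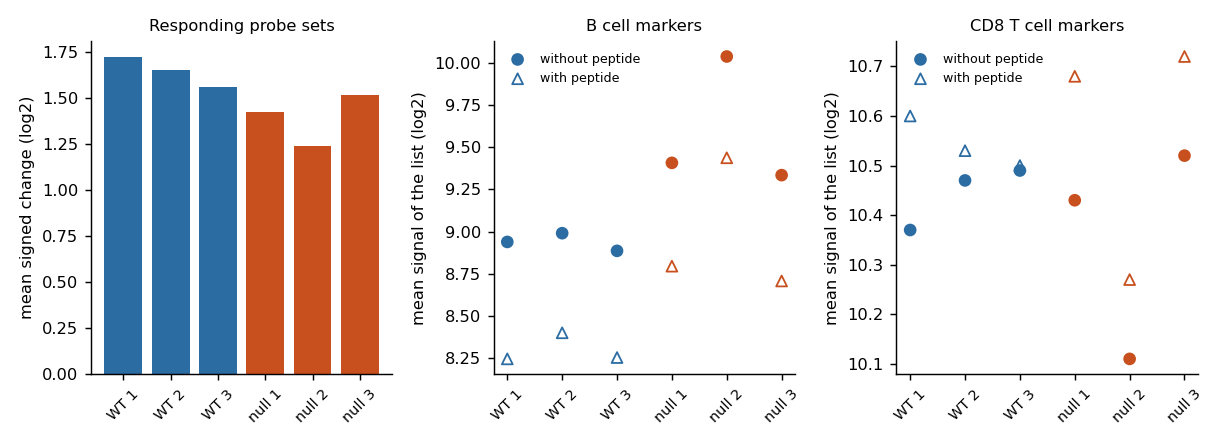
Left, mean signed change (log2) of the 3367 responding probe sets in each mouse, bars from 0. Centre and right, mean log2 signal of 16 B cell and 10 CD8 T cell markers on each array, without (filled) and with (open) peptide; the null bars, from 1.24 to 1.51, are lower than the wild-type bars, from 1.56 to 1.72, and the B cell mean is higher in null mice in both conditions.

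Position on the chromosomes was read from the order of genes in the RefSeq table. Of the 25 genes, 4 lie on chromosome 14 (Ccnb1ip1, Gzmc, Gzmb and Tnfrsf19; 16% against 3.47% of measured genes) and 4 on chromosome 7 (Dhx34, Prkd2, Chsy1 and Swap70; 16% against 7.93%). Dhx34 is separated from Prkd2 by 16 coding genes. Among the 31 measured genes within 20 coding genes on either side of Prkd2, Dhx34 was called and 3 passed an unadjusted p under 0.05. Over all 18193 genes 25 were called and 1928 passed an unadjusted p under 0.05, a share close to that of this stretch. Slc1a5, a glutamine transporter in that stretch, was lower in null without peptide (6.70, 6.89 and 7.36 against 5.04, 5.66 and 5.58) and with peptide (9.05, 8.56 and 9.30 against 7.28, 7.09 and 7.23). The arrays did not overlap in either condition, yet its rise of 1.99 and 1.77 gave a difference of -0.21 (95% interval -0.74 to 0.31).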

How the data were processed

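Lymph node cells of 6 mice were measured on 12 Affymetrix arrays. The authors deposited log2 values per probe set, made with Affymetrix Expression Console 1.1 per the submitters' processing notes. The sources used here do not give the normalization, so which differences between arrays it removed is unknown. Values were used as deposited, and 64 control probe sets of 45101 were dropped. The number of arrays limits the precision.

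Per mouse, the unstimulated value was subtracted from the stimulated value, and limma 3.58.1 in R 4.3.3 was fitted to the 6 differences (4 residual and 5.32 prior degrees of freedom). Tests were two-sided, with Benjamini and Hochberg adjustment over 45037 probe sets; p-values measure the spread between the 3 mice of a genotype. Arrays were paired by the mouse identifiers in the labels. Both arrays of a mouse deviated together from their group means (correlation 0.116 to 0.577 over probe sets), in each case more than arrays of different mice of its genotype. For wild-type mouse 2 the margin was small, 0.116 against 0.083. Of the probe sets, 34945 had 1 gene symbol, 932 several and 9160 none, and 3 called probe sets had none or several. Names ending in x_at or s_at can bind several transcripts.

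Named are Prkd2, Il2 and Ifng, every called gene, the 5 largest kept and 5 largest bounded rises and falls, and up to 4 called members of each of 28 lists (2 where 0 were called); others are stated as picked after their values were seen. The members, lists and rules were chosen with earlier results of these data known. The tests were checked on simulated data. The alternatives were unpaired arrays, a trend with robust moderation, weights per mouse, a filter on signals under 6, quantile normalization, centring, gene means, dropping x_at and s_at probe sets, other shares kept, other sizes of a response, and each mouse left out in turn.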

Additional observations from a re-analysis of the deposited data

Results flagged for a closer look

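Celsr1 was picked out because its 2 genotypes moved in opposite directions: all 3 wild-type mice went down with antigen and all 3 null mice went up. The difference of 1.12 on the log2 scale was called (SE 0.135, limma adjusted p = 0.043). It kept its direction in 15 of 15 alternatives, where it ran from 1.01 to 1.20, and was called in 7. With a mouse left out or the arrays unpaired the direction could not reverse, since the changes did not overlap between genotypes. The adjusted p was between 0.01 and 0.41 over these alternatives, the highest with the arrays unpaired.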

How the results depend on the processing

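The count of 43 probe sets with a genotype difference was lower with any mouse left out and without the pairing. It was 1 with no replicate block (arrays unpaired), 15 with a trend and robust moderation, 24 with each mouse centred, and 0 to 17 with a mouse left out. It was 9 with the mouse as a random block and 4 against the response ratio, both chosen after seeing the data. The random block estimated a correlation of 0.202 between the 2 arrays of a mouse. Weights (51), the signal filter (64), quantile normalization (44) and dropping x_at and s_at probe sets (30) stayed within 1.5 times. Gene means called 43 genes against 25 genes, of which 19 were shared. Gzmb and Ccnb1ip1 were called in 11 of 15 alternatives, and all 25 genes kept their direction in every alternative that measured them. With a mouse left out or the arrays unpaired this direction was fixed in advance, since the changes of these genes did not overlap. Without the pairing, Tnfrsf21 was called and the other 24 genes were not.

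By gene means, 1315 genes responded against 1747, 7122 against 6973 were called in wild type, 6488 against 6325 in null cells, and 991 against 1047 kept more than 50%. The count of probe sets keeping more than 50%, 1863, was 333 to 1729 with a mouse left out, 18 at a share of 75% and 3223 at 25%. The count of probe sets keeping less than 50%, 0, was 1 with the signal filter and 0 to 4 with a mouse left out. The count of probe sets with a bounded difference, 189, was 105 unpaired, 92 with trend and robust moderation, and 86 to 265 with a mouse left out. The response ratio stayed between 0.816 and 0.900 with a mouse left out.

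Differences near 0 that were not called changed sign. With a mouse left out the ranges were -0.31 to 0.0754 for Hivep3, -0.0151 to 0.32 for Rflnb, -0.12 to 0.0384 for Tdrp, -0.0185 to 0.31 for Mturn, -0.39 to 0.0082 for Il7r, -0.0276 to 0.17 for Hdac5, -0.14 to 0.0509 for Fyn, -0.0969 to 0.0770 for Zap70, -0.18 to 0.0294 for Ldha. They were -0.0151 to 0.0526 for Slc16a1, -0.34 to 0.0830 for Cd5, -0.0071 to 0.41 for Cd6, -0.19 to 0.0247 for Ctla4, -0.14 to 0.13 for Ccr2, -0.16 to 0.0877 for Csf1r, -0.21 to 0.0881 for Nkg7 and -0.20 to 0.0658 for Pecam1. Gene means gave -0.0451 for Mturn, -0.17 for Slc16a1 and 0.21 for Slc1a5. Zap70 was 0.0451 after quantile normalization and 0.0044 after centring, and Ccr2 was 0.0565 with weights per mouse. The cause was not tested.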
